A study of Mus musculus with 38 samples.

Results

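The libraries described here come from VM-3055 and VIM-3039 cells, a pair of lines grown out of mouse kidney tumours, and the question is which genes change differently with doxycycline (Dox) in the one line and the other. The 16 libraries labelled VM or VIM and with or without Dox were taken from the 38 mouse libraries of the series by their labels, with no measured value used, and they form 4 groups of 4. VM cells are Vhl-/- and MYC +, and VIM cells are Vhl-/- and MYC + and also lack Ink4a and Arf through a germline deletion of Cdkn2a. Vhl was removed in both by a tamoxifen-inducible Cre, and a Tet-responsive Myc transgene depends in both on rtTA, with Cre and rtTA under the Ksp-cadherin promoter of kidney epithelium. Cells were grown in medium with Dox, plated in the presence (2 µg per ml) or absence of Dox, and collected 24 h later, so the libraries without Dox are from cells taken off it at plating. The line numbers are from the paper, since the labels give the genotype alone. Each genotype is represented by 1 line, so genotype and line cannot be told apart, and nothing states that the 4 libraries of a group were separate cultures, in which case p-values measure only the spread between these libraries.

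MYC is a transcription factor that pairs with MAX and binds E-box sequences. It is known for raising the genes of ribosome assembly, nucleotide synthesis and DNA replication and for holding down many genes of adhesion, matrix and inflammation. ARF, 1 of the products of Cdkn2a, is made in response to strong MYC activity and protects p53 from MDM2, and VHL marks the hypoxia-inducible factors (HIF) for degradation.

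Values are RSEM abundance estimates that the authors scaled in each library so that the upper quartile is 1000, and they are called units here. The libraries held 12.4 to 36.6 M estimated reads, and 3 reads, which are worth 1.16 to 3.34 units, were taken as the floor. A Dox change is the difference of mean log2(value + 1) between libraries with and without Dox. The interaction is the Dox change in VIM-3039 minus that in VM-3055, so it is above 0 where Dox leaves a gene relatively higher in VIM-3039. A gene passed with a limma adjusted p under 0.05 and a difference of more than 1 on this log2 scale. Group values are given as the mean ± SD of 4 libraries.

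The engineered genes were read first. Mouse Myc (chromosome 15, 61816946 to 61821929 in mm9, as are all gene positions here) had 1308, 1399, 1406 and 1345 units in VM-3055 without Dox and 405, 413, 338 and 380 with it. VIM-3039 cells had 1500, 1384, 1532 and 1501 units without Dox and 432, 360, 371 and 361 with it. Myc was thus lower with Dox in every library of both lines, with Dox changes of −1.83 and −1.96, and these changes were not shown to differ (interaction −0.13, SE 0.09, limma adjusted p = 0.289). Whether the transgene has the mouse sequence is not stated, so this value is no check of its induction. For both lines the paper reports Dox-dependent MYC protein by immunoblot. Vhl was at 24.3 to 38.8 units without and 10.3 to 14.9 with Dox in VM-3055, and at 9.49 to 24.9 and 8.32 to 18 in VIM-3039, whereas MYC-2983 cells, which keep the gene, had 433 to 543. Cdkn2a had 5162 ± 476 and 3804 ± 360 units in VM-3055 without and with Dox and 34.1 ± 5.36 and 30.0 ± 4.09 in VIM-3039. Its neighbour Cdkn2b, which encodes the CDK inhibitor p15, went from 645 ± 33.5 to 235 ± 20.3 units in VM-3055 cells and from 886 ± 37.5 to 514 ± 21.9 in VIM-3039. That interaction of 0.67 (SE 0.08) had a limma adjusted p of 1.49e-06 and stayed under the size limit.

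Of 8 kidney epithelial markers, Cdh16, Pax8, Pax2 and Krt19 were at 106 units or more in every library. Cdh1 was at 332 to 523 units in VM-3055 cells and at 39.8 to 95.7 in VIM-3039, and Epcam at 195 to 228 and 31.3 to 76.4. Krt18 was at 1.76 to 11.4 units in VM-3055, and Krt8 at 6.14 to 166. The epithelial sum was 13571 to 14580 units without Dox in both lines, and with Dox 6404 to 6593 in VM-3055 and 7348 to 7466 in VIM-3039. Among 11 fibroblast markers Thy1 and Lum were at or under the floor throughout, whereas Col1a2 was at 81.5 to 684 units in VM-3055 cells and 17.3 to 111 in VIM-3039, Postn at 7.39 to 81.4 and 24.3 to 170, and Pdgfrb reached 73.6 in VIM-3039. Their sum was 702 to 778 units without and 95.9 to 124 with Dox in VM-3055, and 356 to 416 and 81.2 to 114 in VIM-3039. The part of such cells in the matrix and contractile genes was not tested. Of 10 endothelial markers Tie1 and Cldn5 were at 0, Vwf reached 12.3 units, and the sum was at most 19.9. Fewer cells of a type and less RNA per cell cannot be told apart in bulk libraries.

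Of 15179 genes tested, 918 passed the interaction, which is 6.05%, with 562 above 0 (3.7%) and 356 below 0 (2.35%). At an adjusted p under 0.05 alone there were 5053 (33.3%), with 22.8% of all genes above and 10.5% below 0. The direction depended on the scaling. TMM gave 537 above and 351 below 0, whereas quantile normalization gave 407 and 427, so that the share above 0 went from 61.2% to 48.8%. The median interaction over all genes was 0.1 with the authors' scaling and 0.02 with quantile normalization, and 681 genes passed with the same sign under all 3 scalings, 375 above and 306 below 0. The 2 genes nearest to the size limit on the inside were Acox3 (1.001) and Slc22a4 (−1.001), and on the outside Syt13 (0.998) and Prss23 (−0.997).

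Many passing genes were barely expressed in 1 of the lines. Among 11459 genes whose mean reached 10 units in some group of each line, 386 passed (3.37%), 258 above and 128 below 0. Among genes that reached this level in VM-3055 alone 153 of 495 passed (30.9%), among those in VIM-3039 alone 141 of 445 (31.7%), and among those in neither 238 of 2780 (8.56%). The 386 genes expressed in both lines are therefore described first. They split by the change within each line. Of the 258 above 0, 103 fell in VM-3055 only, 60 fell in both lines, 45 rose in VIM-3039 only, 10 rose in both, 4 rose in VIM-3039 and fell in VM-3055, and 36 passed in neither line. Of the 128 below 0, 46 fell in VIM-3039 only, 31 fell in both, 15 rose in VM-3055 only, 5 rose in both, 1 fell in VIM-3039 and rose in VM-3055, and 30 passed in neither. For scale, Dox changed 3584 genes in VM-3055 (23.6%), with 849 higher (5.59%) and 2735 lower (18%), and 3435 in VIM-3039 (22.6%), with 1082 higher (7.13%) and 2353 lower (15.5%). For 227 of the 386 genes (58.8%) the levels of the lines lay closer together with Dox than without, against 53.5% of all genes expressed in both. The scatter of the Dox change in each line shows these genes on either side of the diagonal. The gene at its upper right, Sssca1, was picked out after its values were seen. It was listed at 0 in all libraries without Dox and had 494 ± 64.8 units in VM-3055 cells and 184 ± 41.3 in VIM-3039 with it.

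**Figure D1:**
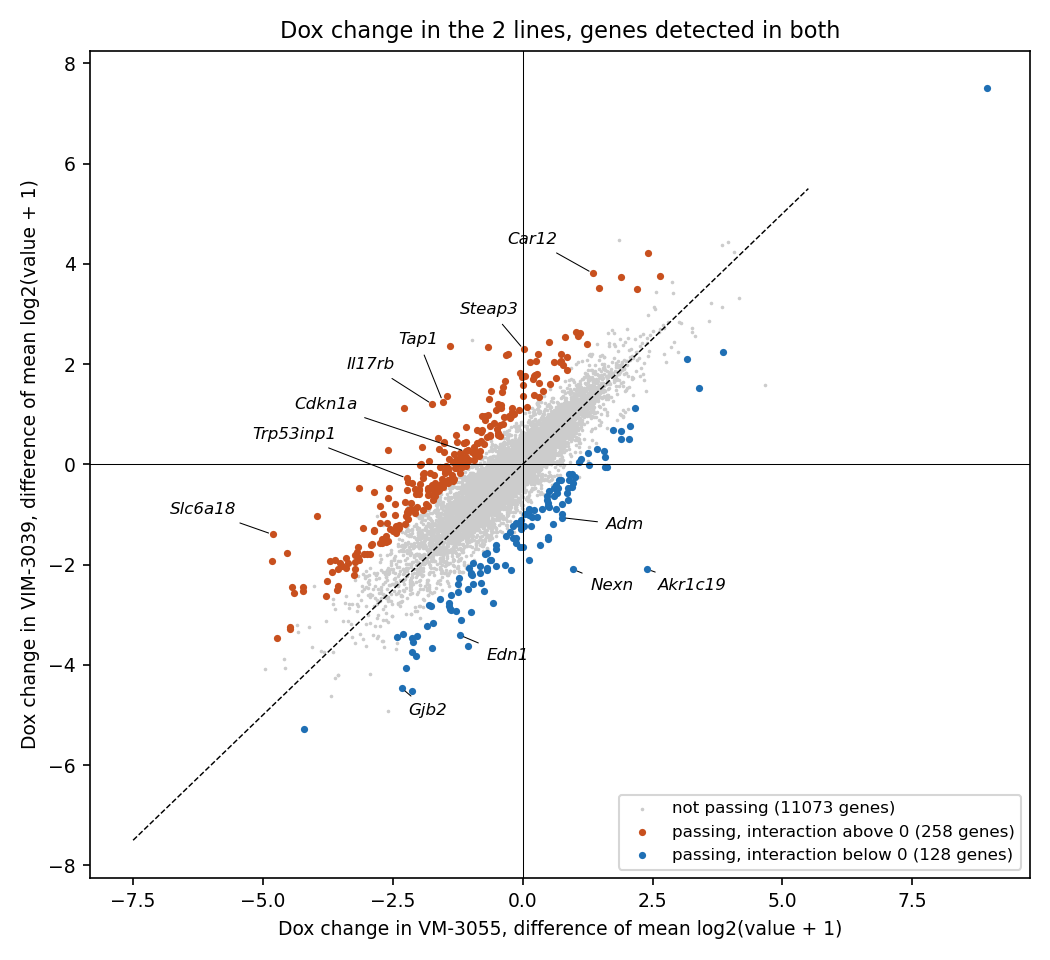
Dox change in VM-3055 (horizontal axis) against Dox change in VIM-3039 (vertical axis), both as differences of mean log2(value + 1), for 11459 genes expressed in both lines. Orange points are the 258 genes that passed the interaction above 0, blue points the 128 that passed below 0, grey points the other genes, and the dashed line marks equal changes.

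The growth genes most associated with MYC hardly passed the interaction with the size limit, though many differed by p alone. Of all genes expressed in both lines 3.37% passed, so 0 in a list of 31 to 48 genes lies near that share. Of 42 ribosome biogenesis genes tested, 35 rose in VM-3055 cells and 37 in VIM-3039, with median Dox changes of 1.47 and 1.57 on the log2 scale. In the interaction 0 passed (median 0.1, equal to that of all genes tested). By p alone 13 were above and 0 below 0, against 22.8% and 10.5% of all genes. Of 33 nucleotide and one-carbon synthesis genes, 20 rose in each line and 0 passed the interaction, with 12 above and 8 below 0 by p alone. None of 38 cytosolic ribosomal protein genes, 33 aminoacyl-tRNA synthetase genes or 31 proteasome genes passed it. Of 32 DNA replication genes 14 rose in VM-3055 cells and 22 in VIM-3039, and of 33 mitosis genes 13 and 20. The interaction of these lists had medians of 0.18 and 0.19, and 0 members passed with the size limit. At an adjusted p under 0.05, 18 and 17 members were above 0, a larger share than the 22.8% of all genes. Oxidative phosphorylation genes behaved likewise, with 23 of 48 above 0 by p alone, again a larger share, a median of 0.2 and 0 passing. Among 13 genes of the MYC and MAX network only Mycl1, which encodes L-MYC, passed. It went from 62.6 ± 8.48 to 49.3 ± 3.5 units in VM-3055 cells and from 45.8 ± 6.85 to 10.8 ± 3.1 in VIM-3039 (interaction −1.68, SE 0.27, limma adjusted p = 4.4e-05).

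**Figure D2:**
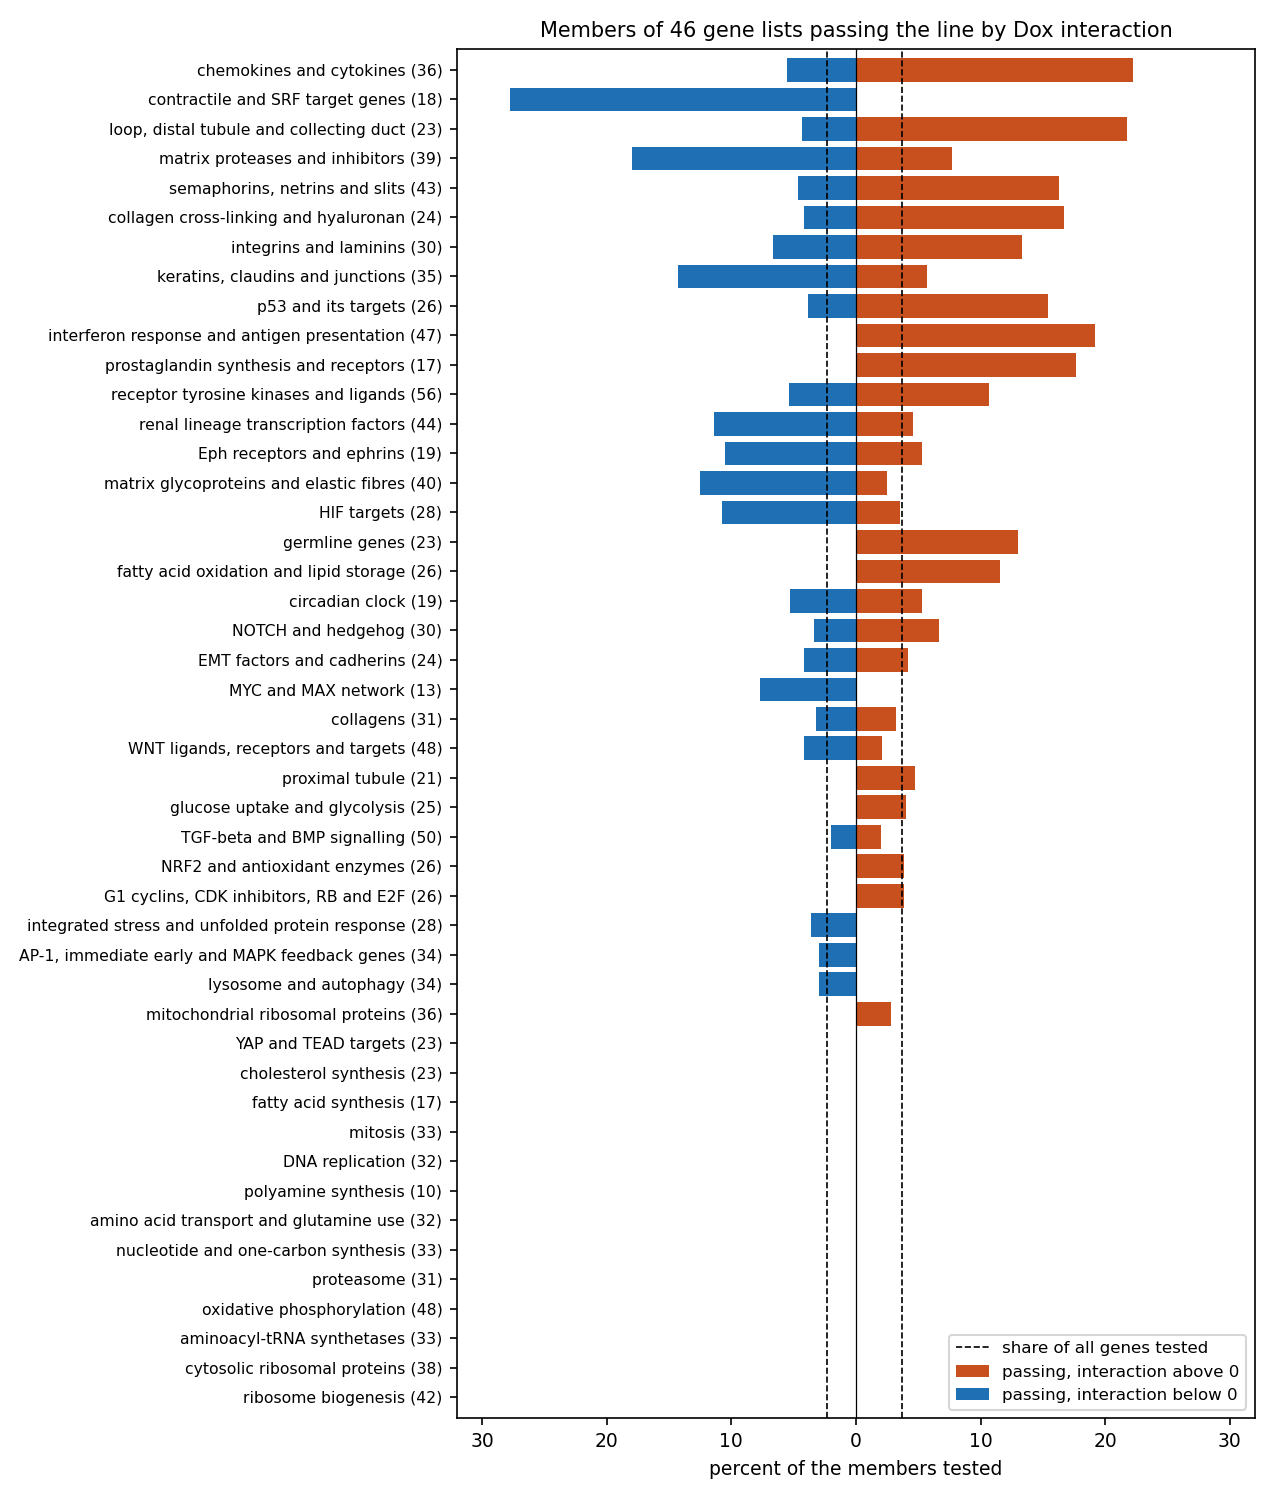
Percent of the tested members of 46 gene lists that passed the interaction above 0 (orange, to the right) and below 0 (blue, to the left), with the number tested in brackets and the shares of all 15179 genes, 3.7% and 2.35%, as dashed lines. The 13 lists at the bottom, from YAP targets to ribosome biogenesis, have 0 passing members.

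A few targets of p53 were among the genes that differed. Cdkn1a (chromosome 17, 29227924 to 29237667), which encodes the CDK inhibitor p21, had 1206, 1094, 1191 and 1205 units in VM-3055 without Dox and 563, 562, 546 and 525 with it. Its level in VIM-3039 was 2006, 1905, 1993 and 2105 units without Dox and 2384, 2389, 2388 and 2395 with it. The gene was lower with Dox in every VM-3055 library and higher in every VIM-3039 library. The interaction was 1.35 (SE 0.06, limma adjusted p = 8.26e-14) and kept its size under quantile normalization, at 1.23. Ccng1 (chromosome 11, 40562054 to 40568813), which encodes cyclin G1, showed the same crossing. It had 1119, 1263, 1119 and 1067 units in VM-3055 without and 628, 722, 697 and 680 with Dox, and 5952, 6117, 6192 and 5763 in VIM-3039 without and 7769, 8080, 8499 and 7457 with it (interaction 1.15, SE 0.07, limma adjusted p = 5.41e-11). Neither change of Ccng1 exceeded 1 on the log2 scale by itself.

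Trp53inp1 (chromosome 4, 11083578 to 11101526), a p53-induced gene with a role in autophagy and cell death, differed most among the p53 genes expressed in both lines. It had 698, 766, 723 and 727 units in VM-3055 without Dox and 156, 139, 159 and 167 with it. The VIM-3039 libraries had 1363, 1391, 1410 and 1255 units without and 1159, 1158, 1131 and 1020 with Dox. The Dox change was −2.23 in VM-3055 cells and −0.28 in VIM-3039 (interaction 1.95, SE 0.08, limma adjusted p = 8.26e-14), and the groups of each line did not overlap. Eda2r, the ectodysplasin receptor of the X chromosome, was close to the floor in VM-3055 (6.67 ± 2.74 and 4.77 ± 1.67 units) and rose from 297 ± 11.2 to 783 ± 46.5 units in VIM-3039 (interaction 1.8, SE 0.3, limma adjusted p = 6.84e-05). Over the 26 p53 genes tested 4 passed above 0, where 3.7% of all genes did, and Rprm, expressed in VIM-3039 alone, passed below 0, a call that quantile normalization ended. By p alone 14 were above and 2 below 0, against 22.8% and 10.5% of all genes. The median interaction was 0.27, from median Dox changes of −0.41 in VM-3055 cells and 0.1 in VIM-3039. Mdm2, which encodes the ligase that p53 both induces and is destroyed by, went from 1374 ± 123 to 1049 ± 16 units in VM-3055 cells and from 2200 ± 66.7 to 2695 ± 113 in VIM-3039, an interaction of 0.68 under the size limit. Trp53 itself had 227 ± 15 and 197 ± 12 units in VM-3055 cells and 2248 ± 112 and 3142 ± 48.1 in VIM-3039, also with an interaction of 0.68. Bax and Aen, which act in cell death, had interactions of 0.01 each.

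Genes of cholesterol synthesis and uptake had higher Dox changes in VM-3055, where 4 of them rose, than in VIM-3039, where 1 did. None of the 23 tested passed with the size limit, yet 20 were below 0 at an adjusted p under 0.05, where 10.5% of all genes were. The median interaction was −0.37 and was −0.45 under quantile normalization, and the median Dox change was 0.5 in VM-3055 cells and 0.02 in VIM-3039. Nsdhl (chromosome X, 70163896 to 70203853), a sterol dehydrogenase, had 637, 692, 622 and 648 units in VM-3055 without and 1077, 1132, 1146 and 1150 with Dox. The libraries of VIM-3039 had 2387, 2421, 2358 and 2327 units without and 2459, 2279, 2179 and 2455 with Dox, so the groups overlapped there. The interaction was −0.81 (SE 0.06, limma adjusted p = 8.73e-10), the largest of the list. Cyp51, the lanosterol demethylase, went from 5984 ± 199 to 9870 ± 189 units in VM-3055 cells and from 6638 ± 105 to 7134 ± 247 in VIM-3039. The 3 members that did not reach the p threshold were Tm7sf2, Dhcr7 and the regulator Srebf2.

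**Figure D3:**
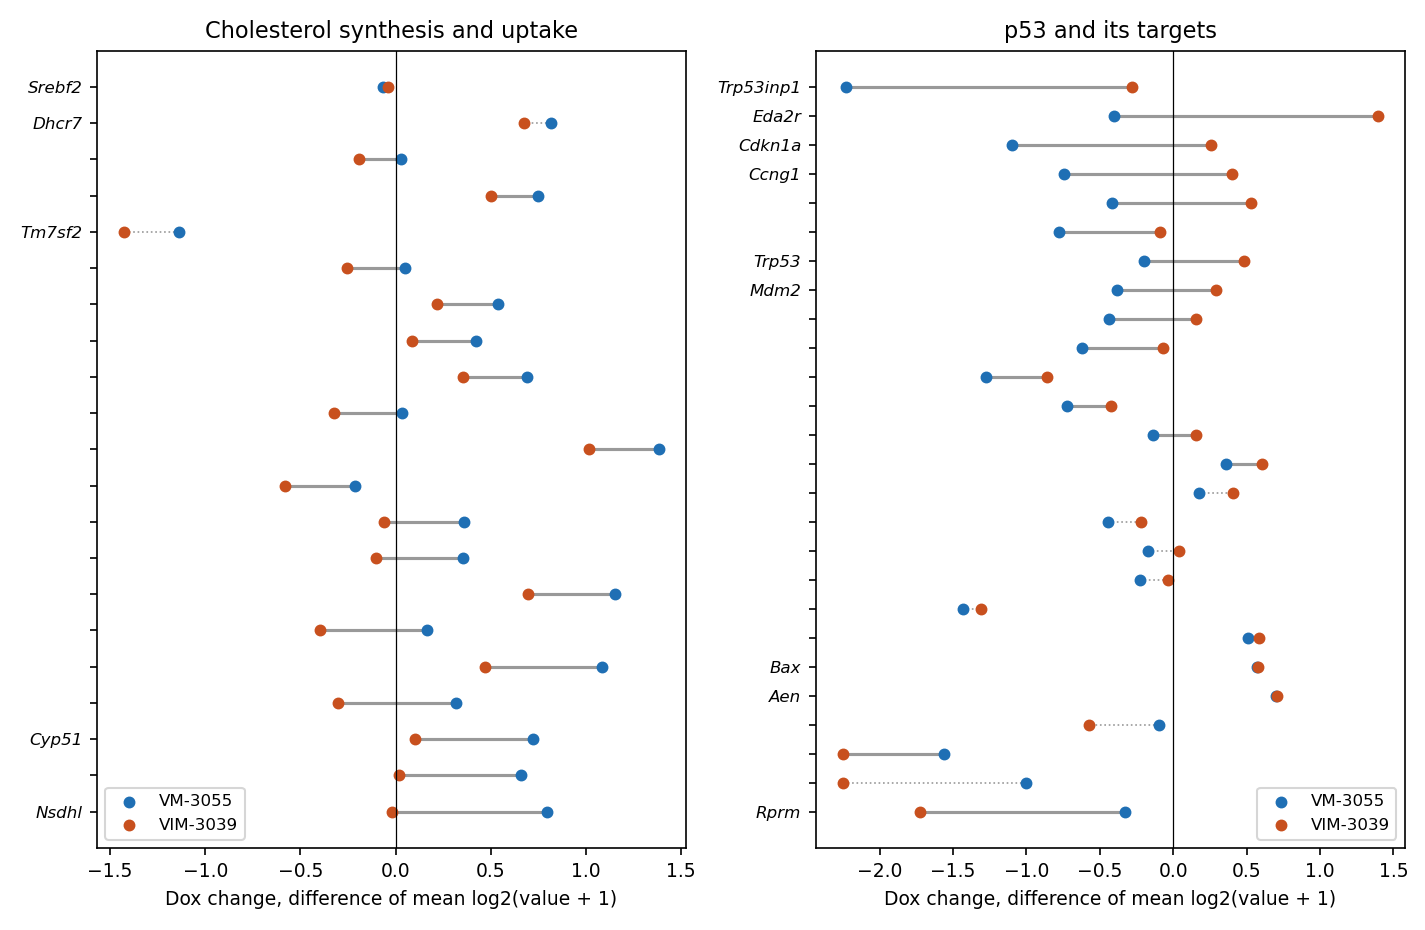
Dox change, as a difference of mean log2(value + 1), in VM-3055 (blue) and VIM-3039 (orange) for genes of cholesterol synthesis and uptake, leaving out those not reported here (left), and for 26 genes of p53 and its targets (right), sorted by the interaction, with names for the genes described in the text. Solid lines join pairs with an interaction at an adjusted p under 0.05 and dotted lines the others, with Nsdhl (−0.81) at the bottom on the left and Trp53inp1 (1.95) at the top on the right.

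A few other lipid genes had interactions of the opposite sign. Of 26 genes of fatty acid oxidation and lipid storage 3 passed, all above 0, where 3.7% of all genes passed above 0. Ppargc1a (chromosome 5, 51845488 to 51958964), a coactivator of mitochondrial genes, had 226, 233, 239 and 260 units in VM-3055 without and 79.1, 76.6, 73.9 and 75.4 with Dox. Its VIM-3039 levels were 14.2, 29, 20.4 and 29 units without and 27.1, 31.9, 34.8 and 36.4 with Dox, with overlapping groups (interaction 2.15, SE 0.25, limma adjusted p = 5.72e-07). Dgat1, which makes triglycerides, fell from 1047 ± 149 to 446 ± 22.5 units in VM-3055 cells and had 369 ± 20.8 and 373 ± 65.1 in VIM-3039. Pparg, a regulator of fat storage, fell from 40.2 ± 10.9 to 10.3 ± 6.22 units in VM-3055 cells and had 45.3 ± 2.43 and 34.5 ± 6.19 in VIM-3039.

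Interferon response and antigen presentation genes mostly fell with Dox in VM-3055, and fewer of them passed in VIM-3039. Of 47 tested, 36 fell in VM-3055, where 18% of all genes fell, and in VIM-3039 23 fell, where 15.5% did, and 1 rose. The median Dox changes were −1.69 and −0.95. The interaction passed above 0 for 9 members and below 0 for 0, where 3.7% and 2.35% of all genes passed. By p alone 22 were above and 2 below 0, against 22.8% and 10.5% of all genes. The median interaction was 0.48, which quantile normalization reduced to 0.32. Only 4 of the 9 were expressed in both lines, namely Tap1, Irgm2, Tap2 and Xaf1. Tap1 (chromosome 17, 34324498 to 34334170), a subunit of the peptide transporter for MHC class I, had 11.5, 12, 12.4 and 19.7 units in VM-3055 without and 9.61, 5.11, 1.7 and 2.63 with Dox. The level in VIM-3039 cells was 11.4, 13.4, 5.1 and 14.9 units without and 25, 27, 24.9 and 28.3 with Dox, so it was the member that rose (interaction 2.79, SE 0.49, limma adjusted p = 1.47e-04). Tap1 overlaps Psmb9 on the other strand. Irgm2, an interferon-inducible GTPase, had 122, 124, 127 and 115 units in VM-3055 without and 9.61, 11.9, 11 and 15.8 with Dox, and 72.1, 82.5, 63.6 and 58.1 in VIM-3039 without and 9.72, 19.4, 13.1 and 15.3 with it. Its interaction of 1.04 (limma adjusted p = 0.00569) ended at 0.89 to 0.96 on leaving out VIM-3039 Dox 2, VIM-3039 no Dox 4 or VM-3055 Dox 1. Tap2 fell from 122 ± 9.52 to 9.62 ± 2.97 units in VM-3055 cells and from 31.5 ± 5.25 to 4.77 ± 1.4 in VIM-3039, and its interaction of 1.07 likewise lost the call, at 0.87 to 0.99, on leaving out VIM-3039 Dox 1, VIM-3039 Dox 3, VIM-3039 no Dox 3 or VM-3055 Dox 1.

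The other passing interferon genes were low. Ifit1 (chromosome 19, 34715361 to 34724499), an inhibitor of viral translation, had 6.17, 16.3, 15.5 and 12.2 units in VM-3055 without Dox and 0 in each library with it. In VIM-3039 it had 9.49, 13.4, 9.18 and 4.98 units without and 1.39, 0.693, 1.31 and 0.808 with Dox. Against the floor these falls were at least 5.04-fold and at least 4.33-fold, so which line fell further is not determined, and the interaction of 1.41 became 0.36 with a pseudocount of 10. Psmb8, an immunoproteasome subunit, was at 7.05 to 12.9 units in VM-3055 without Dox and at 0 with it, a fall of at least 3.8-fold, and at 0 to 7.59 and 0 to 0.808 units in VIM-3039, so which line fell further is again not determined. Gbp3, a guanylate-binding protein, went from 25 ± 5.82 to 3.72 ± 0.465 units in VM-3055 cells and had 7.23 ± 1.95 and 5.18 ± 2.51 in VIM-3039. The annotated gene Gm20496 overlaps Tap2 and Psmb8 on the other strand. Such differences depend on the pseudocount, and with 10 in place of 1 the passing members numbered 3, and where a mean of 10 units was required 5.

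Sequences upstream of 3 of these genes and of Myl9, described further on, are shown as examples that hold the motif marked. They are the 250 bases before the start of the gene, 5′ to 3′ on the gene's strand, from RefSeq (GRCm38.p6). Capitals mark GAAA, any 2 bases and GAAA again, the core of the interferon-stimulated response element, in either direction for the interferon genes, and the CArG box, the site bound by SRF, for Myl9. The windows lie at chr19:34640639-34640888 (Ifit1), chr11:58214727-58214976 (Irgm2), chr3:142559794-142560043 (Gbp3) and chr2:156775214-156775463 (Myl9), all on the plus strand.
Ifit1: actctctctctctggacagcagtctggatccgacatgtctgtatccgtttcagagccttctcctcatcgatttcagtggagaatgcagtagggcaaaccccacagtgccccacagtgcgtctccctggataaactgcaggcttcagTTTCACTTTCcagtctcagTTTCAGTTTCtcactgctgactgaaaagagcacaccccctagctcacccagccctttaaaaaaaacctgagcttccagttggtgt
Irgm2: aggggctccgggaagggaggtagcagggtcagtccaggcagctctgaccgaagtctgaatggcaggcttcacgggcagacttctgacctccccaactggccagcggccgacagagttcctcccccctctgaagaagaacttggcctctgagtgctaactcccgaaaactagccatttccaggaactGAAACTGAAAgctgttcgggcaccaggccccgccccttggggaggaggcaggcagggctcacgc
Gbp3: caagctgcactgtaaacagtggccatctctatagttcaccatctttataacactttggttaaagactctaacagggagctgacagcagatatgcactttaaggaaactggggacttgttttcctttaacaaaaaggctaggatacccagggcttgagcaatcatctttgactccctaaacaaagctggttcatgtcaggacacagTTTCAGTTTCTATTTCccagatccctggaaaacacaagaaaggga
Myl9: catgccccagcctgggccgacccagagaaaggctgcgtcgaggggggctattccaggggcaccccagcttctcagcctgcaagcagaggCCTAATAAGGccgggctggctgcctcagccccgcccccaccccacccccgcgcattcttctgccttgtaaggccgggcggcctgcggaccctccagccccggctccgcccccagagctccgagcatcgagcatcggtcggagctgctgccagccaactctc
A promoter was available for 10578 of the 15179 genes. On either strand this core stood in 14 of 34 promoters of the interferon list (41.2%) and in 322 of all (3.04%). Matches that overlap were counted within 1 capital run. Among genes expressed in both lines the core stood in 2.84% of promoters, in 2.69% of those passing above 0 and in 3.66% of those passing below 0. The CArG box stood in 5 of 14 promoters of the contractile list (35.7%) and in 156 of all (1.47%). Its shares among genes expressed in both lines were 1.47% of all, 1.08% of those passing above 0 and 4.88% (4 of 82) of those below. The E-box CACGTG, searched in the same windows, stood in 9.52% of all promoters, in 13.8% of those of genes that rose in both lines, and in 8.6% and 9.76% of those of passing genes above and below 0 that were expressed in both lines.

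Chemokines and cytokines had 8 members above and 2 below 0 among 36 tested, where 3.7% and 2.35% of all genes passed. Among the 17 expressed in both lines 5 passed above and 0 below 0, where 3.37% of such genes passed in either direction. Cxcl1 (chromosome 5, 91320267 to 91322141), a neutrophil attractant, had 960, 1100, 1044 and 959 units in VM-3055 without and 617, 612, 584 and 554 with Dox. VIM-3039 cells had 337, 324, 388 and 353 units without and 752, 696, 643 and 640 with Dox. The groups of both lines were separate and their order was opposite (interaction 1.74, SE 0.09, limma adjusted p = 1.88e-12). Il34, a ligand of the receptor Csf1r, had 161, 152, 191 and 159 units in VM-3055 without and 11.1, 9.36, 5.09 and 7.02 with Dox, and 76.9, 88.1, 81.6 and 84.6 in VIM-3039 without and 18.7, 13.2, 9.84 and 13.7 with it. It fell in both lines, further in VM-3055 (interaction 1.71, SE 0.29, limma adjusted p = 9.34e-05). Il1rn, the interleukin-1 receptor antagonist, went from 810 ± 74.5 to 333 ± 33.5 units in VM-3055 cells and from 51.8 ± 4.18 to 78.5 ± 3.32 in VIM-3039. Ccl20, which attracts cells with the receptor Ccr6, had 171 ± 6.71 and 202 ± 19.5 units in VM-3055 cells and rose from 8.73 ± 6.03 to 28.7 ± 5.64 in VIM-3039. Cxcr7, a scavenger receptor for Cxcl12, had 153, 121, 167 and 174 units in VM-3055 without and 2.96, 2.55, 0.849 and 2.63 with Dox, and was at or close to the floor in VIM-3039, at 1.02 to 4.46 units without Dox and 0 with it. Members below 0 were Ccl7 and Ccl9, both monocyte attractants and both expressed in VIM-3039 alone, of which Ccl9 went from 73.7 ± 8.37 to 6.13 ± 2.67 units there.

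Of 6 leukocyte markers tested, 4 fell with Dox in VM-3055 and 0 in VIM-3039, where 18% and 15.5% of all genes fell. Their median Dox changes were −1.39 and −0.13. In the interaction 3 passed above 0, where 3.7% of all genes did. Ptprc, which encodes CD45, had 58.3 ± 11 and 14.2 ± 2.15 units in VM-3055 without and with Dox and 12 ± 2.94 and 13 ± 6.42 in VIM-3039, and Cd68 had 56.5 ± 8.92 and 15.1 ± 6.64, and 13 ± 3.95 and 11.4 ± 4.39. Itgam lost its call in 13 of 16 fits without 1 library, at 1.21 to 1.48. The summed level of the 11 markers was 1145 to 1212 units in VM-3055 without Dox, 467 to 531 with it, 601 to 682 in VIM-3039 without Dox and 516 to 549 with it, mostly from Csf1r and Cd14. Cd3e, Emr1, Tyrobp, Lyz2 and Laptm5 were at or under the floor in all 16 libraries. The part of such cells in the immune genes was not tested.

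**Figure D4:**
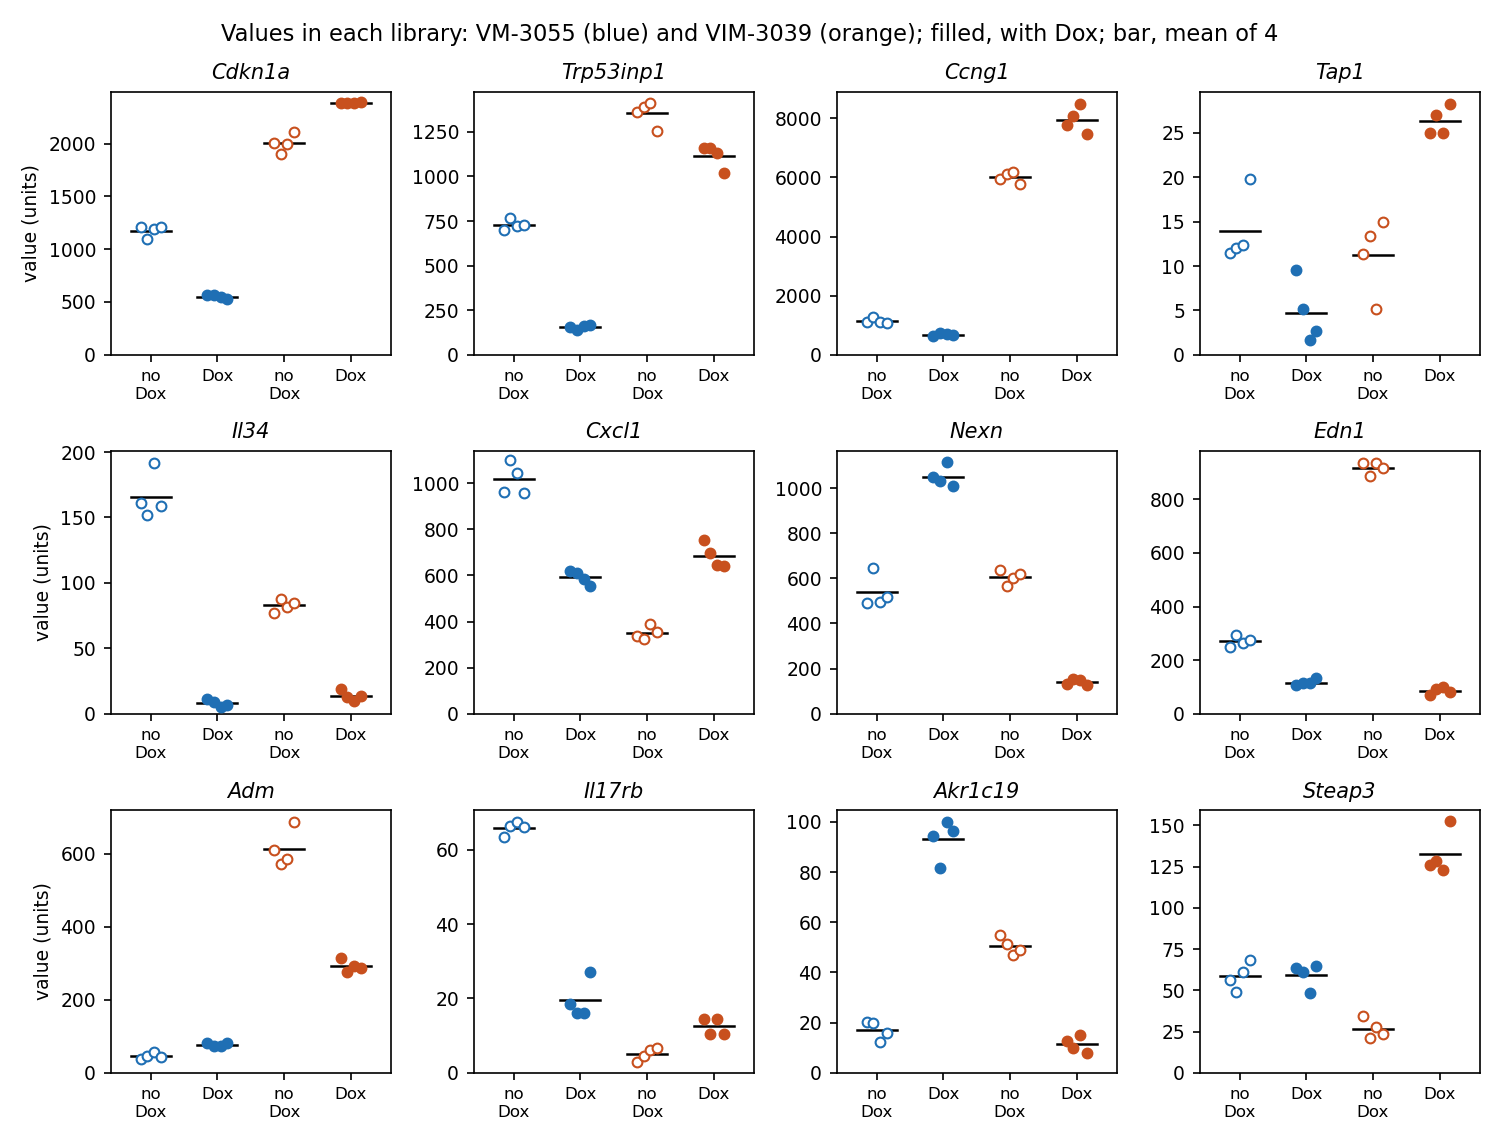
Values in units for 12 genes in each library, with 4 libraries a group. Blue is VM-3055 and orange VIM-3039, open circles are without and filled circles with Dox, bars are group means, and each vertical axis starts at 0. Cdkn1a, Ccng1, Tap1, Cxcl1 and Il17rb go up with Dox in VIM-3039 and down in VM-3055, and Nexn, Adm and Akr1c19 the reverse.

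Contractile genes fell with Dox in both lines, with 14 of 18 falling in each, where 18% and 15.5% of all genes fell. Their median Dox changes were −1.35 and −1.73. Below 0 in the interaction were 5 members, with 0 above, where 2.35% and 3.7% of all genes passed. By p alone 13 were below 0, against 10.5% of all genes. The count of 5 rests on low values in VM-3055. Myl9 (chromosome 2, 156601156 to 156607394), a myosin light chain, had 2.65, 3.88, 3.88 and 0.760 units there without and 0.739, 0, 0 and 0 with Dox. Its level in VIM-3039 was 1913, 1580, 1818 and 1872 units without and 81.2, 103, 130 and 77.6 with Dox. Actg2, smooth muscle gamma actin, was at 0.775 to 1.76 units in VM-3055 without Dox and at 0 with it, and in VIM-3039 at 89.2, 101, 102 and 112 without and 3.47, 2.77, 8.53 and 0.808 with Dox. Lmod1, a leiomodin of smooth muscle, fell from 112 ± 15 to 6.35 ± 0.541 units in VIM-3039. Acta2, smooth muscle alpha actin, fell from 4928 ± 246 to 510 ± 75.3 units in VIM-3039, and from 7.28 ± 2.34 to 0.801 ± 0.608, at least 2.93-fold, in VM-3055. Its interaction of −1.05 became 0.24 with a pseudocount of 0.1, −0.995 with TMM and −0.5 with voom on the recovered reads, and lay at −0.87 to −0.99 on leaving out VIM-3039 Dox 1, VM-3055 Dox 1, VM-3055 no Dox 1 or VM-3055 no Dox 3. Cnn1, calponin, was the only one of the 5 expressed in both lines. It fell from 37.8 ± 11.2 to 13.8 ± 4.71 units in VM-3055 cells and from 398 ± 33.7 to 53.7 ± 9.68 in VIM-3039 (interaction −1.49, SE 0.3, limma adjusted p = 5.5e-04). With a pseudocount of 0.1 only 1 contractile gene passed.

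Nexn (chromosome 3, 151899950 to 151929284), which encodes the actin-binding protein nexilin and is on no list used here, was well expressed in both lines and crossed. It had 492, 645, 495 and 518 units in VM-3055 without and 1049, 1030, 1115 and 1008 with Dox, and 637, 567, 600 and 620 in VIM-3039 without and 130, 154, 152 and 128 with it. The interaction was −3.07 (SE 0.11, limma adjusted p = 4.5e-15).

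Of 28 HIF targets tested 1 passed above and 3 below 0, where 3.7% and 2.35% of all genes did. Car12 (chromosome 9, 66561493 to 66614652), a membrane carbonic anhydrase, had 529, 550, 588 and 596 units in VM-3055 without and 1470, 1431, 1430 and 1432 with Dox. The libraries of VIM-3039 had 130, 126, 133 and 128 units without and 1827, 1828, 1817 and 1832 with Dox. It rose in both lines, more in VIM-3039 (interaction 2.46, SE 0.06, limma adjusted p = 3.02e-18). Edn1 (chromosome 13, 42396639 to 42403358), the vasoconstrictor endothelin-1, had 250, 292, 263 and 276 units in VM-3055 without and 106, 114, 114 and 132 with Dox, and 937, 886, 934 and 915 in VIM-3039 without and 71.5, 93.6, 99.1 and 80.8 with it. It fell in both, more in VIM-3039 (interaction −2.2, SE 0.13, limma adjusted p = 1.92e-11). Adm (chromosome 7, 117771175 to 117773331), the vasodilator adrenomedullin, had 37, 45.8, 55.8 and 44.1 units in VM-3055 without and 82.8, 72.3, 73 and 80.7 with Dox, and 609, 572, 585 and 687 in VIM-3039 without and 313, 276, 293 and 288 with it. The directions were opposite and the groups separate (interaction −1.82, SE 0.15, limma adjusted p = 2.61e-09). Lox, a collagen cross-linking enzyme, was below the floor in VM-3055 cells and fell from 5985 ± 163 to 2071 ± 109 units in VIM-3039, and its interaction lost the call with a pseudocount of 0.1, at −0.96, and with voom, at −1.44.

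Junction and keratin genes had 2 members above and 5 below 0 among 35, where 3.7% and 2.35% of all genes passed. Among the 24 expressed in both lines 1 passed above and 3 below 0. Gja1 (chromosome 10, 56097106 to 56110225), which encodes connexin 43, had 678, 770, 647 and 668 units in VM-3055 without and 1268, 1299, 1222 and 1237 with Dox. The level in VIM-3039 cells was 5706, 5272, 5416 and 5478 units without and 3059, 3430, 3733 and 3134 with Dox, so it moved in opposite directions (interaction −1.58, SE 0.08, limma adjusted p = 1.14e-12). Gjb2, connexin 26, fell from 204 ± 11.7 to 40.3 ± 7.29 units in VM-3055 cells and from 114 ± 9.76 to 4.26 ± 0.943 in VIM-3039. Krt7, a simple epithelial keratin, had 395, 457, 501 and 510 units in VM-3055 without and 331, 320, 295 and 295 with Dox, and 21.8, 13.4, 15.3 and 18.2 in VIM-3039 without and 1.39, 2.77, 1.97 and 0.808 with it (interaction −2.18, SE 0.27, limma adjusted p = 1.81e-06). With Dox Krt7 was above the floor in 1 of 4 libraries of VIM-3039, and with a pseudocount of 10 its interaction was −0.64 and lost the call. The partner keratins passed with opposite signs, Krt8 above and Krt18 below 0, though both fell in VIM-3039. Krt18 was close to the floor in VM-3055, and Krt8 lost its call with a pseudocount of 10, at 0.92. Krt8 fell from 138 ± 18.9 to 10.2 ± 3.15 units in VM-3055 cells and from 218 ± 22.2 to 49.1 ± 10.7 in VIM-3039, whereas Krt18 had 5.63 ± 3.03 and 7.25 ± 3.63 in VM-3055 cells and fell from 229 ± 16.9 to 83.9 ± 7.26 in VIM-3039. Cldn19, a tight junction claudin of the thick ascending limb, had 132, 114, 134 and 145 units in VM-3055 without and 3.69, 9.36, 6.79 and 5.26 with Dox, and at most 4.04 in VIM-3039.

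Matrix genes that passed were in part expressed in 1 line alone. Of all genes 3.7% passed above and 2.35% below 0. Of 31 collagens 1 passed above and 1 below 0, both expressed in both lines, and of 40 matrix glycoproteins 1 passed above and 5 below 0, of which 3 were. Of 39 proteases and inhibitors 3 passed above and 7 below 0, and only Mmp15, Adamts1 and Adamts5 were expressed in both lines. Mmp15, a membrane-type metalloproteinase, had 99.8 ± 10.9 and 109 ± 11.6 units in VM-3055 cells and fell from 382 ± 24.1 to 102 ± 11.7 in VIM-3039 (interaction −2.03, SE 0.15, limma adjusted p = 7.9e-10). Mmp14, another of this type, was below the floor in VM-3055 cells and fell from between 146 and 167 to between 29.5 and 31.2 units in VIM-3039. Adamts20 rose from 2.5 ± 0.815 to 27 ± 6.27 units in VM-3055 cells and was under the floor in VIM-3039. Nid2, a basement membrane linker, went from 313 ± 5.46 to 609 ± 58.2 units in VM-3055 cells and from 190 ± 4.12 to 139 ± 9.7 in VIM-3039 (interaction −1.4, SE 0.1, limma adjusted p = 3.7e-10). Of 30 integrin and laminin genes 4 passed above and 2 below 0, and 1 on each side was expressed in both lines. Lama2, counted above 0, was at or under the floor in both lines. Itgb4, the hemidesmosome integrin, fell from 74.2 ± 17.3 to 25.7 ± 8.48 units in VM-3055 cells and had 13.1 ± 2.0 and 18.6 ± 6.07 in VIM-3039. Lama3, a subunit of its ligand laminin 332, fell from 153 ± 19.4 to 22.6 ± 6.02 units in VM-3055 cells and had 2.52 ± 2.35 and 5.09 ± 2.26 in VIM-3039. Of 24 collagen cross-linking and hyaluronan genes 4 passed above and 1 below 0, 3 of them expressed in both lines. Under all 3 scalings 2 of the 4 above 0 passed. Hyal1 lost its call on leaving out 1 library, VIM-3039 Dox 1, at 0.99. Among 24 EMT factors and cadherins Grhl1 passed above and Snai2 below 0, and Snai2 had 96.7 ± 17.6 and 31.6 ± 3.21 units in VIM-3039 and was under the floor in VM-3055. Grhl1 lost its call under quantile normalization, at 0.82 against 1.08, and Snai2 lost its call with voom, at −1.66, and with a pseudocount of 0.1, at −0.81.

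Semaphorins, netrins and slits, which guide axons and vessels, had 7 above and 2 below 0 among 43, where 3.7% and 2.35% of all genes passed. There were 6 and 1 among the 30 expressed in both lines. Under all 3 scalings 4 of the 7 above 0 passed. Their median interaction was 0.09, near the 0.1 of all genes. Eph receptors and ephrins had 1 above and 2 below 0 among 19. Robo3, a receptor of the slit family, had 23.5 ± 10.5 and 18 ± 2.9 units in VM-3055 cells and rose from 2.16 ± 0.255 to 13.7 ± 2.68 in VIM-3039 (interaction 2.47, SE 0.39, limma adjusted p = 3.7e-05). Receptor tyrosine kinases and their ligands had 6 above and 3 below 0 among 56, with a median of 0.1. Angpt2, an antagonist of the receptor Tek, fell from 199 ± 17.3 to 33.3 ± 11.8 units in VM-3055 cells and had 38.6 ± 5.0 and 24.2 ± 5.12 in VIM-3039. Igf1, the growth factor, was below the floor in VM-3055 cells and fell from 15.3 ± 1.73 to 1.46 ± 0.922 units in VIM-3039, at least 7.15-fold against the floor.

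Among 44 renal lineage transcription factors 2 passed above and 5 below 0, where 3.7% and 2.35% of all genes did. Sox9, a factor of renal progenitors and repair, fell from 409 ± 25 to 136 ± 19.7 units in VM-3055 cells and had 298 ± 15.8 and 286 ± 22.8 in VIM-3039 (interaction 1.53, SE 0.12, limma adjusted p = 2.3e-09). Mecom went from 13.8 ± 1.73 to 21.2 ± 3.94 and from 73.3 ± 12.4 to 31.9 ± 6.29 units (interaction −1.76, SE 0.27, limma adjusted p = 3.3e-05). Osr1, an early factor of the nephron lineage, was at 0 in all VM-3055 libraries and fell from 25.4 ± 3.0 to 5.18 ± 2.77 units in VIM-3039. Prostaglandin genes had 3 above 0 among 17 and germline genes 3 above 0 among 23, where 3.7% of all genes passed above 0. No passing gene of either list was expressed in both lines. Genes of the loop, distal tubule and collecting duct had 5 above (2 under all 3 scalings) and 1 below 0 among 23. Of these passing genes 2 above and 0 below 0 were expressed in both lines. WNT genes had 1 above and 2 below 0 among 48, NOTCH and hedgehog genes 2 and 1 among 30, and TGF-beta and BMP genes 1 and 1 among 50. Of 19 genes of the circadian clock 1 passed above and 1 below 0, the former being Dbp.

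Ordered by pattern, with up to 4 named for each among genes that pass under all 3 scalings and reach 50 units in some group, the opposite movers were Il17rb and Akr1c19. Il17rb (chromosome 14, 30809327 to 30822082), a receptor for interleukin-25, had 63.5, 66.3, 67.4 and 66.1 units in VM-3055 without and 18.5, 16.2, 16.1 and 27.2 with Dox, and 2.85, 4.46, 6.12 and 6.64 in VIM-3039 without and 14.6, 10.4, 14.4 and 10.5 with it (interaction 2.93, SE 0.33, limma adjusted p = 5.69e-07). Akr1c19 (chromosome 13, 4227946 to 4247927), an aldo-keto reductase of a family with close relatives, had 20.3, 19.8, 12.4 and 16 units in VM-3055 without and 94.6, 81.7, 100 and 96.5 with Dox. In VIM-3039 it had 55, 51.3, 46.9 and 48.9 units without and 12.5, 9.71, 15.1 and 8.08 with Dox (interaction −4.49, SE 0.28, limma adjusted p = 4.87e-11). The groups were separate in both lines for both genes.

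Genes that rose in VIM-3039 only were led by Pcdhgb8, Steap3, Sema4a and Scel. Pcdhgb8, of the clustered protocadherins, whose transcripts share exons, was variable, with 11.8 ± 7.61 and 57.8 ± 22 units in VIM-3039. In VM-3055 it had 29.2 ± 17 and 18 ± 23.6 units. Its fitted Dox change of −1.4 there did not pass but enters the interaction of 3.75. Steap3 (chromosome 1, 122087334 to 122169282), an iron reductase of endosomes, had 56.4, 49.2, 61.2 and 68.4 units in VM-3055 without and 63.5, 61.3, 48.4 and 64.9 with Dox, groups that overlapped. VIM-3039 cells had 34.2, 21.2, 27.6 and 23.2 units without and 126, 128, 123 and 153 with Dox (interaction 2.28, SE 0.22, limma adjusted p = 6.6e-08). Sema4a rose from 13.6 ± 7.24 to 35.5 ± 4.75 units in VIM-3039 and had 163 ± 26.3 and 107 ± 9.77 in VM-3055. Scel, sciellin of the cornified envelope, rose from 3.24 ± 1.59 to 11.9 ± 1.19 and had 212 ± 20.4 and 168 ± 20.1. Without Dox Scel was above the floor in 2 of 4 libraries of VIM-3039, so the size of its rise is uncertain.

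Those that rose in VM-3055 only were led by Bdh1, Adap1, Cables1 and Cth. Bdh1, a mitochondrial enzyme of ketone metabolism, rose from 18.7 ± 4.52 to 58.6 ± 7.78 units in VM-3055 cells and had 247 ± 5.69 and 237 ± 12.8 in VIM-3039. Adap1, an ARF GTPase-activating protein, rose from 35.6 ± 3.45 to 151 ± 19.8 and had 16.2 ± 3.55 and 23.1 ± 3.02. Cables1, a CDK-binding protein, had 84.7, 71.3, 87.6 and 63.8 units in VM-3055 without and 238, 251, 229 and 211 with Dox, and 190, 196, 229 and 193 in VIM-3039 without and 226, 227, 214 and 220 with it. Its VIM-3039 groups overlapped and the VM-3055 level with Dox reached theirs (interaction −1.46, SE 0.14, limma adjusted p = 3.38e-08). Cth, an enzyme of cysteine synthesis, rose from 64.5 ± 11.8 to 192 ± 24.2 units in VM-3055 cells and had 218 ± 31 and 262 ± 24.9 in VIM-3039.

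Besides Ppargc1a, the falls in VM-3055 only were led by Ak1, Aebp1 and Tnfsf13. Ak1, adenylate kinase, which overlaps Eng on its own strand, fell from 21.7 ± 5.5 to 3.02 ± 1.81 units and had 225 ± 19.4 and 276 ± 24.5 in VIM-3039. With Dox Ak1 was above the floor in 2 of 4 libraries of VM-3055, so the size of its fall is uncertain. Aebp1, a secreted collagen-binding protein, fell from 72.6 ± 7.95 to 9.23 ± 1.82 units in VM-3055 cells and had 2180 ± 126 and 1493 ± 66 in VIM-3039 (interaction 2.31, SE 0.15, limma adjusted p = 6e-11). Tnfsf13, the cytokine APRIL, fell from 76.5 ± 7.24 to 12.1 ± 2.24 units and had 15.7 ± 5.4 and 11.2 ± 3.84. Besides Nexn, Krt7 and Mmp15, the falls in VIM-3039 only were led by Grb14, an adaptor of the insulin receptor, which fell from 164 ± 16.5 to 52.6 ± 1.86 units and had 81.7 ± 13.7 and 103 ± 8.66 in VM-3055.

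Of genes that moved one way in both lines, the 4 named were falls with a larger fitted size in VM-3055. Slc6a18 (chromosome 13, 73799198 to 73815471), an amino acid transporter of the proximal tubule, had 126, 129, 151 and 162 units in VM-3055 without and 6.65, 7.66, 1.7 and 2.63 with Dox, and 11.4, 19, 8.16 and 10.8 in VIM-3039 without and 4.86, 4.16, 2.62 and 4.04 with it (interaction 3.42, SE 0.45, limma adjusted p = 4.19e-06). Trpm3, a cation channel that hosts Mir204, fell from 123 ± 13.1 to 7.85 ± 3.78 and from 13.4 ± 5.8 to 5.85 ± 1.76 units. Clec18a fell from 114 ± 18.3 to 3.77 ± 3.03 and from 12.2 ± 5.82 to 2.48 ± 1.42 units. With Dox Clec18a was above the floor in 2 of 4 libraries of each line, so the size of its falls is uncertain. Fst, follistatin, the secreted inhibitor of activin, fell from 174 ± 18.1 to 6.69 ± 2.19 units in VM-3055 cells and from 732 ± 21.4 to 215 ± 13.7 in VIM-3039 (interaction 2.78, SE 0.2, limma adjusted p = 6.1e-10).

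Where neither line passed alone, the interaction was made of opposite smaller changes. Jph1 (chromosome 1, 16987545 to 17087879), junctophilin, had 60.8, 46.9, 62.8 and 60.8 units in VM-3055 without and 105, 100, 96.8 and 87.7 with Dox, and 164, 156, 123 and 163 in VIM-3039 without and 62.5, 86.7, 73.5 and 79.2 with it (interaction −1.75, SE 0.19, limma adjusted p = 1.94e-07). Cxcl1, described above, belongs here too. The gene 2900006K08Rik, which overlaps Aldh6a1, went from 129 ± 9.3 to 78.8 ± 15.2 and from 15.5 ± 4.59 to 31.2 ± 7.51 units. Arhgap28, a GTPase-activating protein, went from 89.6 ± 11.6 to 56.6 ± 13.4 and from 43.6 ± 13 to 83.9 ± 10.3.

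Among genes expressed in 1 line the fitted size of an interaction depends on the pseudocount. Nr1h5 (chromosome 3, 102743581 to 102768056), a nuclear receptor related to FXR, had 2.65, 10.9, 2.33 and 8.36 units in VM-3055 without and 0.739, 0, 0.849 and 0 with Dox, and 19.9, 8.92, 10.2 and 29.9 in VIM-3039 without and 546, 387, 372 and 374 with it (interaction 6.84, SE 0.55, limma adjusted p = 3.17e-09). Its fall in VM-3055 was at least 2.43-fold against the floor. Ccnb1ip1, a ligase of meiotic crossing over, was at 0 in all VM-3055 libraries and rose from 6.88 ± 2.79 to 315 ± 30.3 units in VIM-3039. In VM-3055 alone Epha8, an ephrin receptor, had 0.984 ± 0.948 units without and 59.2 ± 12.7 with Dox, at least 28.1-fold higher against the floor, and had at most 2.62 in VIM-3039. St8sia2, a polysialyltransferase, fell from 563 ± 27.3 to 34 ± 9.14 units in VM-3055 cells and was at 0 in all VIM-3039 libraries.

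MYC-2983 cells, which carry the Myc transgene and keep Vhl and Cdkn2a, were not used in the interaction and give a further Dox change from 8 libraries. The patterns were picked by the change in 1 of the other lines, so the following is a description. Of 385 passing genes expressed in both lines and tested in MYC-2983, 204 had a Dox change there closer to that in VM-3055 (53%), against 47.5% of all 11449 such genes. Dox changed 2782 of 14486 genes in MYC-2983 (19.2%), 646 higher (4.46%) and 2136 lower (14.7%). Among the 45 genes that rose in VIM-3039 only, 11 rose in MYC-2983, 3 fell, and 37 lay closer to VM-3055. Among the 46 that fell in VIM-3039 only, 16 fell and 2 rose there, and 31 lay closer to VM-3055. Of 102 that fell in VM-3055 only, 48 fell in MYC-2983 and 57 lay closer to VIM-3039. All 4 genes that rose in VIM-3039 and fell in VM-3055 fell in MYC-2983, among them Tap1 from 95.1 ± 14.7 to 18.9 ± 3.74 units and Il17rb from 417 ± 34.6 to 146 ± 9.17. Akr1c19 rose there from 10.4 ± 4.78 to 44.8 ± 7.8 units, as in VM-3055. Cdkn1a had 271 ± 27 and 157 ± 6.59 units, Trp53inp1 275 ± 4.93 and 62.5 ± 2.45, and Ccng1 1347 ± 28.6 and 975 ± 39.7, all lower with Dox in each library. Steap3 went with VIM-3039, from 53.4 ± 1.91 to 157 ± 11.6 units. Contractile genes stood high and fell, Myl9 from 5335 ± 242 to 1309 ± 87.9 and Actg2 from 1606 ± 54.8 to 310 ± 33.6 units.

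**Figure D5:**
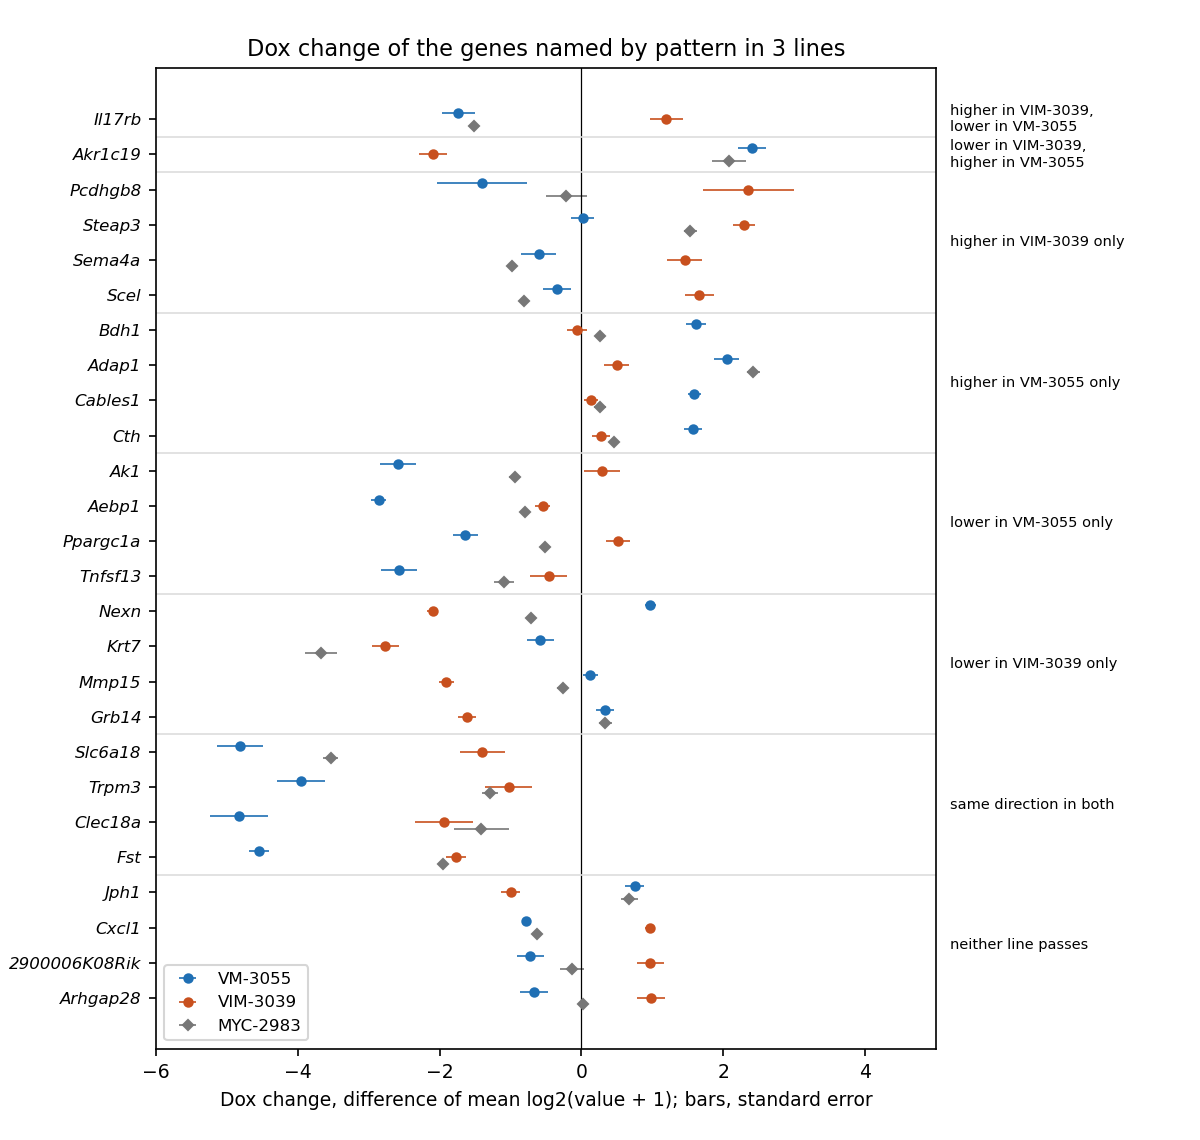
Dox change, as a difference of mean log2(value + 1) with its standard error, in VM-3055 (blue), VIM-3039 (orange) and MYC-2983 (grey diamonds) for the genes named by pattern, which is given at the right. Il17rb and Akr1c19 have MYC-2983 beside VM-3055, and Steap3 and Krt7 have it nearer to VIM-3039.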

How the data were processed

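Poly(A) RNA libraries (TruSeq Stranded mRNA, 75-base paired reads) were aligned by the authors to mm9 with MapSplice and quantified against UCSC knownGene with RSEM, and the deposited values are a signal per gene, the abundance estimate scaled to an upper quartile of 1000 in each library. They are not counts. At low values 94.1% to 95.9% were whole multiples of a library's smallest step within 0.02, from which the depth was estimated.

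From the table of 21705 entries, only genes with a value above 0 in 4 or more libraries were kept, and log2(value + 1) was fitted with limma 3.58.1 (R 4.3.3, trended moderation, two-sided, Benjamini-Hochberg). The Dox changes of both lines and the interaction come from 1 fit, MYC-2983 has its own. Libraries with the same replicate number did not deviate together within a line, with mean correlations of deviations of −0.121 (VM-3055) and 0.004 (VIM-3039). Between the lines the means were 0.045 with and 0.086 without Dox. Whether the numbers mark pairs cannot be told from these values. The members and the 51 lists were chosen with earlier results of these data known. Named are up to 4 genes for each of 8 patterns, those passing under all scalings with a mean of 50 units in some group, and list members that the text describes. Tested on simulated data of 15179 genes, the fit called all 50 genes at each of the shifts ±1.5 and ±3 and 81 of 14979 unshifted genes (0.541%). The shifted genes all had a mean of at least 50 units over the libraries, so their recovery says nothing about genes at low values. Alternatives covered scaling, pseudocount, filter, moderation, voom on recovered reads, a replicate block and leaving out each library. Promoter sequences are from RefSeq (GRCm38.p6), gene positions from mm9 annotation. Some genes are counted in their lists but not reported here by name.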

Additional observations from a re-analysis of the deposited data

Results flagged for a closer look

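In 140 groups of 4 libraries examined, 11 had 1 library far from the other 3, and chance gives about 1 in 20. They were Myc at 432 units in VIM-3039 with Dox, Cdkn1a at 1094 in VM-3055 without Dox, Tap1 at 19.7 in VM-3055 without Dox, Psmb8 at 0.808 in VIM-3039 with Dox, Myl9 at 0.739 in VM-3055 with Dox, Nexn at 645 in VM-3055 without Dox, Car12 at 1470 in VM-3055 with Dox, Cables1 at 229 in VIM-3039 without Dox, Jph1 at 46.9 in VM-3055 without Dox and Nr1h5 at 546 in VIM-3039 with Dox. The depth of 1 VM-3055 library without Dox, 36.6 M estimated reads, was the other. For Myl9 and Psmb8 the flagged values lay under the floor, so the rate of about 1 in 20 does not hold for these groups.

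The Dox change differed between the lines by the interaction test for 918 genes. Among those described above it was above 0 for Cdkn1a (1.35), Trp53inp1 (1.95), Ccng1 (1.15), Eda2r (1.80), Ppargc1a (2.15), Tap1 (2.79), Irgm2 (1.04), Ifit1 (1.41), Psmb8 (2.15), Cxcl1 (1.74), Il34 (1.71), Cxcr7 (4.02), Car12 (2.46), Il17rb (2.93), Steap3 (2.28), Slc6a18 (3.42), Nr1h5 (6.84) and Cldn19 (4.39). It was below 0 for Actg2 (−3.51), Myl9 (−2.60), Nexn (−3.07), Edn1 (−2.2), Adm (−1.82), Gja1 (−1.58), Krt7 (−2.18), Akr1c19 (−4.49), Cables1 (−1.46) and Jph1 (−1.75). Ifit1 and Psmb8 were at or under the floor with Dox in both lines. Cxcr7, Actg2, Myl9 and Nr1h5 were so in at least 1 line, and Cldn19 was at or under it in VIM-3039 without Dox. The sizes for these genes therefore depend on the pseudocount. For Ifit1 and Psmb8 the values do not determine which line fell further.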

How the results depend on the processing

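The number of genes with a passing interaction was 918 and depended most on how low values were treated. It was 541 where a mean of at least 10 units was required and 458 with a pseudocount of 10. Those above 0 numbered 341 and 250 under these settings, and those below 0 numbered 200 and 208, and 219 with a pseudocount of 0.1. Genes changed in MYC-2983 numbered 1936 with a pseudocount of 10 against 2942. The interaction of Acta2 turned to 0.24 with a pseudocount of 0.1. Leaving out 1 library gave 830 to 884 passing genes, 486 to 562 above and 318 to 357 below 0, 373 to 405 among genes expressed in both lines, 4581 to 4929 by p alone, and 3546 to 3625, 3375 to 3475 and 2915 to 2992 genes changed by Dox in VM-3055, VIM-3039 and MYC-2983. With the replicate number as a block 894 passed. Same-numbered libraries of a line did not deviate together, which does not show whether the numbers mark pairs. Of 1115 values of single genes under the other alternatives 1060 kept their direction and call, 54 lost the call and 1 turned. Depth limits genes near the floor, where a fitted difference rests on a few reads and its error measures only the spread between these libraries.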
